A study of Brassica rapa subsp. pekinensis with 6 samples.

Results

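In the flower buds of a Chinese cabbage, Brassica rapa subsp. pekinensis, 213 genes were abundant in the male sterile mutant msm and moderately higher there than in its wild type. They were selected on measured RPKM values, which are reads scaled to gene length and to the total reads of the library. A member had at least 30 RPKM in each msm library, and its mean msm level was at least 2 but less than 4 times its mean wild-type level. The deposited tables list 35421 genes, of which 6686 reached the minimum in each msm library, and the 213 members are 3.19% of those. Of the remaining genes at the minimum, 6401 had a ratio below 2 and 72 had a ratio of 4 or more. Because the choice used all libraries of both groups, the levels and ratios given here describe the members and test nothing.

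The material was developing buds collected when plants were in full bloom, from wild-type plants called FT and from plants of genotype msm. Each genotype gave 3 libraries, numbered here as in their titles (wild type 1, 2 and 4, and msm 1, 2 and 3). The wild-type libraries held 25156752 ± 216956 uniquely assigned reads and the msm libraries 25534727 ± 600111 (mean ± SD, n = 3 each). The labels do not tell whether libraries of one genotype came from different plants, so the spread among them may be technical. A male sterile flower forms its petals, sepals and carpels but yields no functional pollen. In a fertile bud the anther holds the developing pollen and the tapetum, the nurse layer that feeds it, and both express many genes of their own. Male sterility often goes with loss of these cells or of their RNA. In whole buds more cells of a type and more RNA per cell cannot be told apart, and RPKM gives a share of a library and not an amount per bud. None of the 213 identifiers matched a named gene in the RefSeq table used here, so what the members encode is not stated and the bud tissue could not be checked with floral markers. Members are therefore given by the identifiers of the tables, with their coding length.

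The members covered a wide range of abundance. Mean levels ran from 8.85 to 639 RPKM in wild type, with a median of 25.3 RPKM, and from 30.6 to 1582 RPKM in msm, with a median of 64.9 RPKM. In wild type 128 members had a mean below 30 RPKM, so most of the set lay below the msm minimum there, whereas 79 reached 30 RPKM in all wild-type libraries as well. Means of 100 RPKM or more were reached by 20 members in wild type and by 59 in msm. Among all genes ranked by mean level, the median member stood at rank 7740 in wild type and at rank 3054 in msm. The 1000 most abundant genes held 10 members in wild type and 34 in msm, and the 100 most abundant held 1 and 6.

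**Figure D1:**
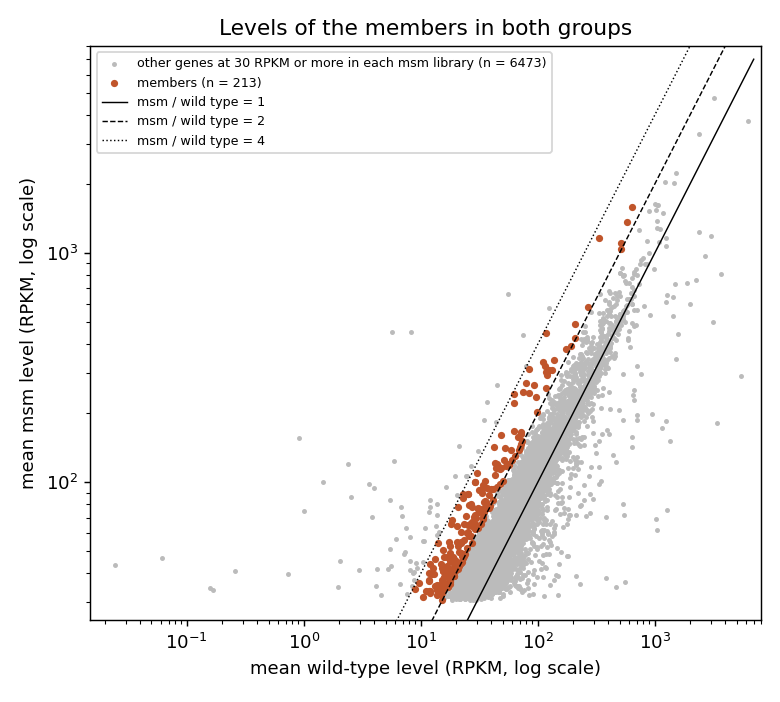
Mean level of each gene in wild type (horizontal axis, RPKM, log scale) and msm (vertical axis, RPKM, log scale) for the 6686 genes at 30 RPKM or more in each msm library. The 213 members form the band between the lines for ratios of 2 and 4, and none of them has a wild-type mean of 1000 RPKM or more.

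Most members lay close to the lower limit of the ratio. The median ratio of msm to wild type was 2.38, with quartiles of 2.15 and 2.79. A ratio between 2 and 2.5 was found for 134 members, a ratio between 2.5 and 3 for 41, and a ratio between 3 and 4 for 38. No gap set the members apart from weaker changes, since 791 further genes at the same minimum had a ratio from 1.5 to 2. Just inside the lower limit was Bra026580 (1467 bases), with 14.2, 16.4 and 15.2 RPKM in wild type 1, 2 and 4 and 30.9, 30.7 and 30.1 RPKM in msm 1, 2 and 3, a ratio of 2.001. It was also the member nearest to the minimum level. Just outside the ratio limit was Bra029614 (1218 bases), with means of 18.8 RPKM in wild type and 37.6 RPKM in msm and a ratio of 1.9998. Just below the minimum level was Bra002674 (414 bases), whose lowest msm library held 29.96 RPKM. At the upper end, Bra013450 was the last gene inside, at a ratio of 3.89, and Bra003526 (2715 bases) the first outside, at 4.06, with means of 78.7 and 320.0 RPKM.

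**Figure D2:**
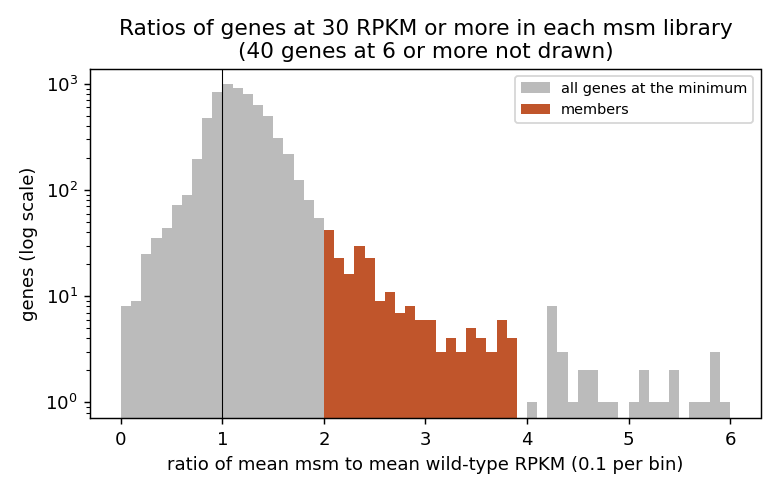
Number of genes (log scale) by the ratio of mean msm to mean wild-type RPKM, in bins of 0.1, for genes at 30 RPKM or more in each msm library. The members continue the falling right-hand side of one distribution, and 40 genes at a ratio of 6 or more are not drawn.

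The ratio depended on how libraries were scaled. RPKM is scaled to total reads, and on that scale the median log2 fold change of all 29104 tested genes was 0.22. With TMM factors, which centre the bulk of the genes, it was 0.005. TMM scaling multiplied every ratio by 0.86, so that the members ran from 1.72 to 3.35 with a median of 2.05. On the TMM scale 129 members kept a ratio of at least 2 and 84 did not. A member needed a deposited ratio of about 2.33 to stay at 2 or more.

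The 5 most abundant members in msm were Bra041148, Bra030386, Bra016073, Bra010727 and Bra038700, each above 1000 RPKM on average there. Bra030386 (1581 bases) had 587, 567 and 595 RPKM in wild type 1, 2 and 4 and 1428, 1293 and 1370 RPKM in msm 1, 2 and 3. Its lowest msm library was more than 2 times every wild-type library, and its log2 difference was 1.23 ± 0.05 (SE, n = 3 each). Bra016073 (672 bases) had 343, 326 and 338 RPKM in wild type and 1221, 1091 and 1168 RPKM in msm. It had the largest ratio of these 5, at 3.45, with a log2 difference of 1.79 ± 0.05 (SE, n = 3 each), and it moved from rank 325 to rank 22. Bra010727 (1389 bases) had 545, 523 and 483 RPKM in wild type and 1063, 1213 and 1048 RPKM in msm, at a ratio of 2.14. Bra038700 (978 bases) had 516, 504 and 526 RPKM in wild type and 1037, 1076 and 1002 RPKM in msm. Its ratio of 2.01 fell to 1.73 with TMM scaling, and that of Bra010727 to 1.84, so both were under 2-fold on that scale.

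Among the next most abundant in wild type, the ratios lay between 2.02 and 2.36. Bra018969 (1587 bases) had 269, 259 and 271 RPKM in wild type and 598, 560 and 578 RPKM in msm. Bra022585 (1746 bases) had 213, 214 and 202 RPKM and then 414, 433 and 428 RPKM. Bra023978 (699 bases) had 204, 211 and 207 RPKM and then 504, 464 and 501 RPKM, and its ratio of 2.36 was the highest of these 5. Bra027049 (963 bases) had 171, 176 and 178 RPKM and then 407, 347 and 392 RPKM. In each of these 4 genes the libraries of a genotype lay close together and the genotypes did not overlap. Bra000815 (405 bases) had 190, 187 and 204 RPKM in wild type and 449, 327 and 399 RPKM in msm. Its msm libraries were more scattered, with msm 2 lowest, and its log2 difference was 1.01 ± 0.14 (SE, n = 3 each).

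The 3 members of highest ratio were less abundant. Bra013450 (732 bases) had 22.5, 21.9 and 24.1 RPKM in wild type and 92.7, 88.3 and 85.3 RPKM in msm, a log2 difference of 1.96 ± 0.05 (SE, n = 3 each). Bra031968 (777 bases) had 9.37, 8.11 and 9.06 RPKM in wild type, the lowest mean of any member, and 35.0, 31.6 and 36.2 RPKM in msm. Bra032945 (348 bases) had 60.6, 64.1 and 65.0 RPKM in wild type and 240, 238 and 252 RPKM in msm. With TMM scaling these 3 genes stayed more than 3-fold higher, at 3.35, 3.33 and 3.31. The 3 members of lowest ratio were Bra026580, Bra015981 and Bra023635. Bra023635 (1410 bases) had 21.3, 20.3 and 20.8 RPKM in wild type and 42.0, 41.9 and 41.4 RPKM in msm, and the ratio of 2.007 went with very even libraries.

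The members with the most even libraries show how small the spread could be. Bra004182 (1329 bases) had 119, 118 and 117 RPKM in wild type and 442, 438 and 459 RPKM in msm, at a ratio of 3.78 and a log2 difference of 1.92 ± 0.02 (SE, n = 3 each). Bra036447 (1566 bases) had 28.3, 28.0 and 27.8 RPKM in wild type and 66.2, 66.0 and 67.5 RPKM in msm, at a log2 difference of 1.25 ± 0.01 (SE, n = 3 each). Across the members the SE of the log2 difference had a median of 0.08 and reached 0.67 in Bra041148.

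**Figure D3:**
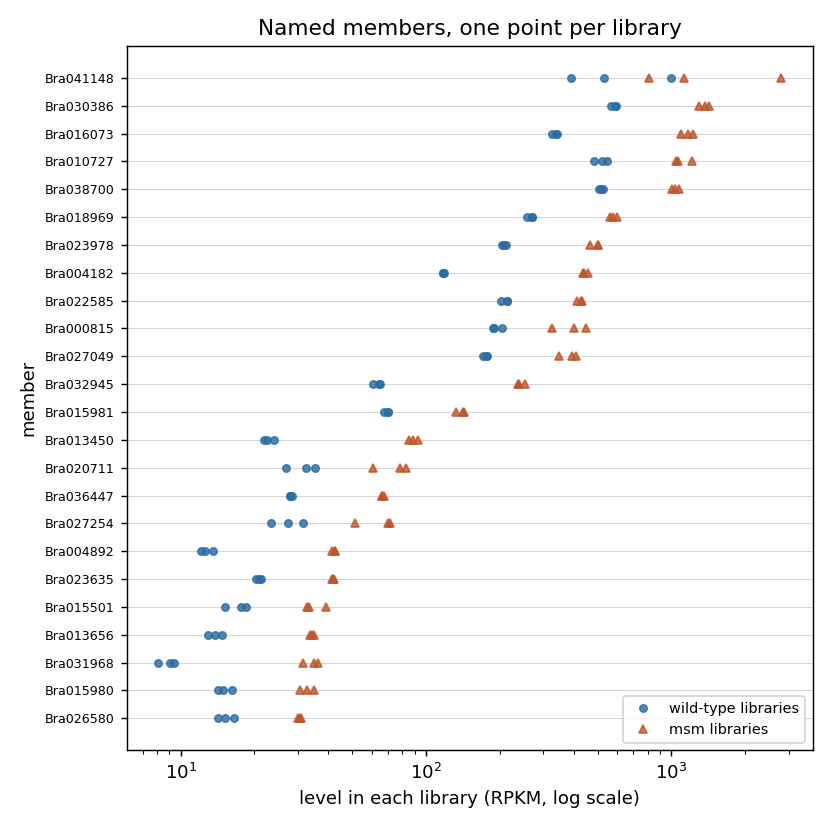
Level of each named member in every library (RPKM, log scale), with circles for the 3 wild-type and triangles for the 3 msm libraries. The genotypes are separate in every row but that of Bra041148, at the top, where wild type 2 (996 RPKM) lies above msm 2 (812 RPKM).

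Bra041148 (600 bases) was the most abundant member and the least reproducible. It had 391, 996 and 530 RPKM in wild type 1, 2 and 4 and 1130, 812 and 2804 RPKM in msm 1, 2 and 3. The genotypes overlapped, because wild type 2 was above msm 2, and msm 3 stood far above all other libraries. Its coefficient of variation, the SD over the mean, was 67.6% in msm and 49.6% in wild type, the highest of the members in both. Its log2 difference was 1.21 ± 0.67 (SE, n = 3 each), and edgeR's quasi-likelihood test gave an adjusted p of 0.24. Its msm libraries differed by up to 3.45 times and its wild-type libraries by up to 2.55 times, against a ratio of 2.47 between the genotypes. By the mean of both coefficients of variation, the next most scattered members were Bra027254 and Bra020711. Bra027254, which at 204 bases was the shortest member, had 23.3, 31.5 and 27.5 RPKM in wild type and 71.3, 51.5 and 70.2 RPKM in msm. Bra020711 (309 bases) had 35.3, 27.0 and 32.4 RPKM and then 83.2, 60.9 and 78.2 RPKM. In both, msm 2 was the lowest msm library and still lay above all wild-type libraries.

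In 212 of the 213 members every msm library was above every wild-type library. This was so for 58.0% of all genes at the same minimum, and the rule itself favours it, so nothing is read from the count. The quotient of the lowest msm library over the highest wild-type library had a median of 2.12. It ran from 0.815 in Bra041148 to 3.69, with 1.61 as its next lowest value. It was at least 2 in 140 members, which the rule favours too. The share of all genes at the minimum that reach this was not computed, so nothing is read from this count either. All 213 members entered the edgeR fit across genes, and 128 were called higher, with an adjusted p below 0.05 and at least 2-fold on the TMM scale, against 4.64% of all tested genes. Without the fold threshold 212 members were called higher, against 26.8% of all tested genes. Bra041148 was the exception, and the next largest adjusted p in edgeR was 7.2e-06. These calls rest on the values that chose the members and describe them only.

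Together the members took a share of reads that was 2.44 times as large in msm as in wild type. They held 1.15%, 1.16% and 1.13% of the reads of wild type 1, 2 and 4 and 2.80%, 2.73% and 2.86% of those of msm 1, 2 and 3. Without Bra041148 the mean share was 1.11% ± 0.0133 (SD, n = 3) for wild-type libraries and 2.70% ± 0.0250 (SD, n = 3) for msm libraries. The share was spread over many genes: 26 members held 50% of the member reads in msm. The 10 members with the most msm reads held 34.9%. Of the gain in scaled reads from wild type to msm over all members, Bra030386 made up 7.48%, Bra010727 4.97% and Bra041148 3.43%.

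The same ratio was then read in libraries left out of a repeated choice. Members were chosen again from 2 libraries of each genotype, and the ratio was taken between the msm and the wild-type library left out, in all 9 ways. Each choice gave 213 to 229 genes. In each of the 9 ways all of them were higher in the left-out msm library, as were 65.4% to 79.1% of all genes that met the minimum level in the choosing libraries. The median ratio ran from 2.31 to 2.46, against 1.13 to 1.19 over all those genes. Of the chosen genes 74.6% to 85.9% fell again between 2 and 4, against 3.10% to 3.58% of all those genes. Since the 9 ways share libraries they give a range and no p. The limits were set with earlier results of these data known, and 187 to 205 of the chosen genes were among the 213 members. Libraries of one genotype may also be technical repeats, so the range describes how alike they are and is no independent support. Bra041148 was not part of every choice: with msm 2 and wild type 2 left out, its ratio in the other libraries was 4.27, above the upper limit.

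Libraries of one genotype varied in the members somewhat more than in genes of the same minimum with a ratio below 2. The median coefficient of variation of the members was 6.39% in msm and 5.11% in wild type, against 5.70% and 4.11% among those 6401 genes. Among the 72 genes with a ratio of 4 or more it was 6.13% in msm and, above the members, 9.18% in wild type. Read counts alone would give a median of 2.45% in msm and 3.81% in wild type for the members, and 2.43% and 2.61% for the 6401 genes. The members have fewer reads in wild type, which is part of the rule. In msm the observed variation was above the counting value in 185 of the 213 members, and in wild type in 151. Among the 6401 genes with a ratio below 2 this held for 5561 in msm and for 4833 in wild type.

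The variation among msm libraries followed gene length. Library msm 2 was the lowest msm library in 112 members (52.6%) and msm 1 the highest in 117 (54.9%). The shares were nearly the same among genes with a ratio below 2, at 52.9% and 53.6%. Members with msm 2 lowest had a median coding length of 789 bases, and members with msm 2 highest 1440 bases. The members were put in 4 classes of nearly equal size by length. In the shortest class (204 to 690 bases) msm 2 was lowest in 42 of 54 and highest in 3, at a median log2 ratio of -0.15 to the mean of msm 1 and msm 3. In the longest class (1479 to 4614 bases) it was lowest in 15 of 53 and highest in 27, at a median of 0.04. The Spearman correlation of this log2 ratio with coding length was 0.50 across the 213 members and 0.63 across the 6401 other genes. For msm 1 against the other msm libraries it was about as strong the other way, at -0.51 and -0.62. For msm 3 it was 0.07 and 0.05. Genes of one library share its preparation, so no p is given. Among wild-type libraries the strongest such correlation in the members was -0.30, for wild type 4. The median ratio of msm to wild type was 2.48 in the shortest class and 2.34 in the longest, and without msm 2 it was 2.61 and 2.31.

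**Figure D4:**
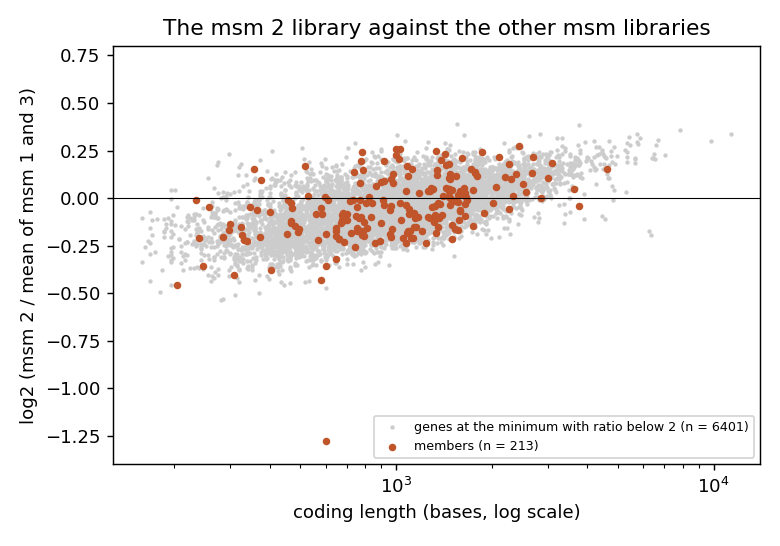
Log2 ratio of msm 2 to the mean of msm 1 and msm 3 for each gene (vertical axis) by coding length (bases, log scale). Short genes lie mostly below 0 and long genes mostly above, in the members and in the 6401 genes with a ratio below 2 alike. The lowest point is Bra041148.

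The covered share of a gene's coding length, which the rule did not use, was high in both genotypes. The median over members was 99.49%, 99.48% and 99.52% in wild type 1, 2 and 4 and 99.73%, 99.73% and 99.72% in msm 1, 2 and 3. The difference of the means was 0.23 percentage points, and the genotypes did not overlap. Genes with a ratio below 2 did not overlap either, with medians of 99.70% to 99.71% over wild-type libraries and of 99.72% to 99.73% over msm libraries. In 45 members every msm library was covered further than every wild-type library, or 21.1% of them, against 5.06% of all genes at the minimum. In none was it the other way round. The members have more reads in msm by their choice, and the part of read number in their coverage was not tested.

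A few members differed in coverage by much more. Bra004892 (3780 bases) was covered to 62.2%, 58.2% and 54.3% in wild type 1, 2 and 4, where it had 1307, 1146 and 1188 reads. In msm 1, 2 and 3 it was covered to 97.4%, 93.7% and 93.9%, with 4110, 4103 and 4030 reads. Its level was 13.6, 12.1 and 12.6 RPKM in wild type and 42.8, 41.5 and 42.7 RPKM in msm, at a ratio of 3.31. Bra004892 was the single member that gained at least 30 percentage points, and among the 6401 genes with a ratio below 2 there was 1 such gene, and 5 that lost as much. Its mean coverage differed by 36.8 percentage points. The part of read number in this difference was not tested.

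Bra015501 (783 bases) was covered to 95.3% in wild type 1 but to 79.0% and 78.9% in wild type 2 and 4, and to 95.02%, 95.27% and 95.02% in msm. Its reads numbered 350, 297 and 361 in wild type and 654, 802 and 651 in msm. Wild type 1 was covered as far as the msm libraries, and wild type 2 and 4 less far. Bra013656 (2853 bases) was covered to 30.1%, 30.2% and 30.3% across wild type 1, 2 and 4, and to 42.0%, 35.0% and 34.6% across msm 1, 2 and 3. It had the lowest coverage of all members in both genotypes, with 925 to 1056 reads per wild-type library and 2409 to 2566 per msm library. RPKM divides by the whole length, so the level of such a gene is that of a part of it spread over the rest. Of all members, 186 were covered to at least 95% in every library.

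**Figure D5:**
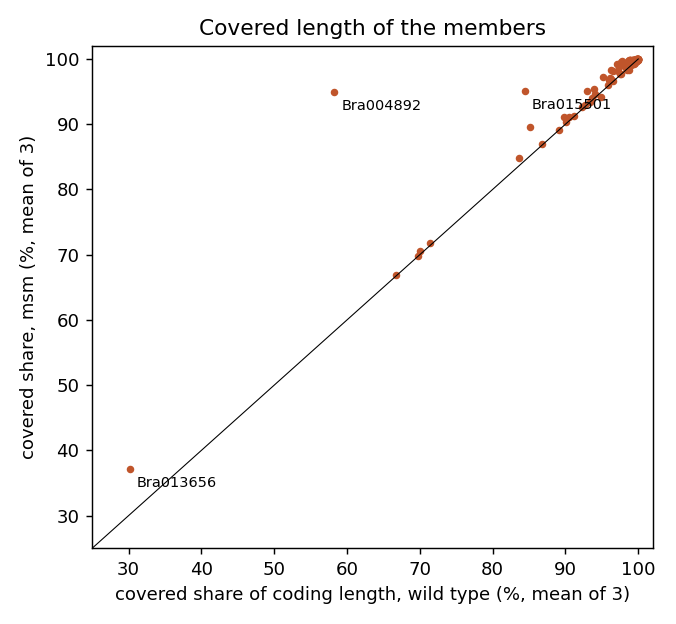
Covered share of coding length in wild type and in msm (%, means of 3 libraries) for the 213 members. Most lie at the upper right end of the line of equal coverage, and Bra004892 and, less so, Bra015501 and Bra013656 lie above it.

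The members were found in all classes of length and of msm level among the genes at the same minimum. Their median coding length was 1053 bases, against 999 bases among genes with a ratio below 2. In 4 equal classes of these genes by coding length they made up 2.45%, 3.59%, 3.71% and 2.99%, from the shortest class to the longest. In 4 classes by msm level, from the lowest up, they made up 3.35%, 2.57%, 3.53% and 3.29%. Within the set the ratio hardly followed the wild-type level or the length, with Spearman correlations of -0.17 and -0.18 over 213 genes. A single pair of members had consecutive identifiers. The count for other genes at the minimum was not computed, so nothing is read from it. Bra015980 (738 bases) had 14.1, 14.9 and 16.3 RPKM in wild type and 30.7, 34.8 and 32.7 RPKM in msm. Bra015981 (1149 bases) had 70.3, 69.7 and 67.6 RPKM in wild type and 143, 132 and 141 RPKM in msm. Both were close to 2-fold higher in msm, at ratios of 2.17 and 2.003, and Bra015981 was the more abundant of the pair in every library.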

How the data were processed

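RNA from buds was taken with Trizol and made into Illumina libraries, per the labels' protocols. For each library the authors deposited a count of uniquely assigned reads, a gene length, a covered percentage and an RPKM value per gene. Per the file headers the count is raw, and its sum equalled the stated total. The deposited coverage was handled as a score, since 14 values in all tables pass 100%. DESeq is named, with no role or version, in the submitters' processing notes. No aligner, genome build, annotation or strand setting is given in the sources used here, so reads of near-identical copies or overlapping genes may be split or lost.

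A gene without a row was given 0. The rule was applied to the deposited RPKM. All genes were fitted with edgeR 4.0.16 in R 4.3.3 (quasi-likelihood test, TMM, default expression filter, Benjamini-Hochberg adjustment). The alternatives were DESeq2 1.42.0, limma 3.58.1 on log2(RPKM + 1) or log2(RPKM + 0.1), other scalings and limits, each library left out, and the replicate number as a block. Fits were tested on simulated data. A planned permutation test of coverage is not reported, since the choice of members favours more reads in msm. Of 35421 identifiers 1 matched the RefSeq table (assembly CAAS_Brap_v3.01), so 12 gene lists by symbol could not be counted. Named members are the extremes in level, ratio, spread and coverage, those next to a limit and the run of consecutive identifiers. Members, lists and rules were chosen with earlier results of these data known.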

Additional observations from a re-analysis of the deposited data

How the results depend on the processing

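The number of members followed its limits. A minimum of 50 RPKM gave 121 members, TMM-scaled RPKM 129, median-ratio scaled RPKM 127, ratio limits of 1.8 and 4.4 gave 361, and 140 had every msm library at 2 times every wild-type library. Of the 129, 114 were members; the other 15 had a deposited ratio of 4 or more. Leaving out each library gave 210 to 228 members, of which 196 to 208 were among the 213. Total count scaling called 2030 of 29104 tested genes and 212 members higher, against 1351 and 128. The rule set its ratio of at least 2 on the scale of total reads. Member counts on that scale, from total count scaling and from limma on RPKM, largely follow from it. Limma on log2(RPKM + 0.1) called 1879 genes and 211 members, and no fold threshold 7802 genes and 212 members. Limma on log2(RPKM + 1) called 192 members, 1.5 times the main count, and 1025 genes. DESeq2, median-ratio scaling and no expression filter moved both counts by less. With a library left out, 115 to 128 members were called, and 1329 to 1424 of all tested genes. The mean share of msm reads was 2.80%, and it was 2.21% in totals without the 100 most abundant genes of each library, 1.58% for members kept under TMM scaling, and, in settings added after seeing the data, 2.70% without Bra041148 and 2.15% without the 5 most abundant members. Without the 100 most abundant genes the share in wild type was 1.26%, so the ratio was 1.75. That setting drops different genes in each library, members among them included, and changes the totals. By mean level the 100 most abundant genes held 6 members in msm and 1 in wild type, so more members are dropped in msm. The part of each step in the lower ratio was not tested. The median left-out ratio was 2.36, 2.04 with TMM scaling and 2.45 as a mean of log2 ratios. Coverage kept its direction throughout. Numbers 1 and 2 occur in both genotypes, but the labels do not tie them. Deviations of equal numbers correlated at -0.32 and 0.15. Those of unlike numbers ran from -0.43 (msm 2 with wild type 4) to 0.49 (msm 1 with wild type 4). A fit with the replicate block called 1299 genes and 123 members. There msm 3 and wild type 4, whose numbers occur in a single genotype, do not inform the difference between genotypes. Counts as low as 89 reads limit the least read members.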
